A study of Homo sapiens with 24 samples.

Results

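Chromatin was described at 4 genes of the C/EBP family, CEBPA, CEBPG, CEBPB and CEBPD, in UMUC1 cells, an established line of human bladder cancer. The members were the peaks and regions of 18 ChIP-seq lists that overlapped 3 windows of hg19, each made of the gene body and about 50 kb on either side. The windows lay on chromosome 19 between 33741 and 33924 kb for CEBPA and CEBPG together, on chromosome 20 between 48757 and 48859 kb for CEBPB, and on chromosome 8 between 48599 and 48701 kb for CEBPD. The first was split at its midpoint, 33832.5 kb, into a CEBPA and a CEBPG side of 91.5 kb each, and the other windows spanned 102 kb each. There were 344 members among the 1483402 peaks and regions of all lists, of which 5 were UTX peaks, 2 MLL4 peaks, 115 H3K27ac regions, 196 H3K4me1 regions and 26 H3K27me3 regions. The windows were chosen by genes and partly by a result, since the CEBPA window was known to hold one of the strongest MLL4 peaks.

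ChIP-seq recovers the DNA that is bound to a protein or to a modified histone, and a peak caller then lists the stretches with more reads than their background. The HEAA line stably expressed UTX with the substitutions H1146A and E1148A in its catalytic domain, the WT line stably expressed wild-type UTX, and the EV line carried the empty vector. All 3 lines were UMUC1 cells with the puromycin-selectable pSIN vector, were harvested 3 days after plating, and are each a single stable line, so a difference between lines cannot be told apart from a difference between isolates. UTX, MLL4, H3K4me1 and H3K27me3 had 1 list per line and so no replicate error, while H3K27ac had 2 numbered libraries per line. A stretch outside every called region had no call at the caller's threshold, which is not an absence of signal. No list gives its read depth.

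C/EBP proteins are basic leucine zipper transcription factors that bind DNA as dimers. C/EBPα, C/EBPβ and C/EBPδ are activators with roles in differentiation, metabolism and the acute phase response, and C/EBPγ lacks their activation domain and can dampen its partners. UTX, also called KDM6A, removes methyl groups from lysine 27 of histone H3 and sits in a complex with MLL4, a methyltransferase that places H3K4me1 at enhancers. H3K27ac marks active promoters and enhancers, and H3K27me3 is the mark of Polycomb repression that UTX can remove.

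UTX and MLL4 had a strong shared site in the windows at CEBPA alone. In the HEAA line the UTX peak spanned chr19:33789324-33789733, which is 410 bp, at a fold enrichment of 10.1 over background. In the WT line it spanned chr19:33789407-33789723, at a fold enrichment of 10.8. Neither UTX nor MLL4 had a peak there in the EV line. The EV lists were short, with 31 UTX and 133 MLL4 peaks, so most sites lacked a call in EV. The UTX lists held 2566 peaks in WT and 2855 in HEAA, and the MLL4 lists 898 and 1125. Only 27 of 3690 merged UTX sites and 89 of 1573 merged MLL4 sites were called in every line. The MLL4 peak lay at chr19:33789391-33789697 in the HEAA line, with a fold enrichment of 11.3, and at chr19:33789414-33789675 in the WT line, with a fold enrichment of 10.1. Fold enrichments are the authors' values and were used within a list only. By that value the UTX peak stood within the top 2.07% of the HEAA list and the top 1.36% of the WT list. The MLL4 peak stood within the top 1.87% of the HEAA list and the top 1.89% of the WT list, and its rank is what the window was selected on. CEBPA is read from the minus strand, and its lower edge lies near 33791 kb, so the site lay 1.27 kb past the 3' end of the gene.

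The summits of these peaks, the points of highest enrichment, lay 1 to 19 bp apart. The UTX summits of HEAA and WT were 14 bp apart, and 28.7% of the 1723 UTX peaks shared by these lines had summits at least as near. In the HEAA line the MLL4 and UTX summits were 1 bp apart, as near as in 3.2% of the 750 MLL4 peaks that met a UTX peak. In the WT line they were 19 bp apart, as near as in 37.8% of 580 such peaks. The median distance was 28 bp in each of the 3 sets.

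The other UTX peaks in the windows were weak, each in 1 line alone. One, called in WT, lay at chr19:33791150-33791316, at the 3' end of CEBPA, at a fold enrichment of 3.93. Another, also called in WT, lay at chr20:48763499-48763678, upstream of CEBPB, at a fold enrichment of 4.33. The last lay in the CEBPB window at chr20:48854056-48854225, was called in HEAA, and had a fold enrichment of 3.68. The CEBPG side and the CEBPD window held no UTX peak, and MLL4 had no peak outside the CEBPA site. Merged over the lines there were 4 UTX sites in the windows. Of these, 1 was called in HEAA and WT but not EV, against 45.8% of all merged UTX sites. A further 1 of 4 was called in HEAA alone, against 30.7%, and 2 of 4 in WT alone, against 22.7%. The single merged MLL4 site was 1 of 1 called in HEAA and WT but not EV, beside 23.9% of all merged MLL4 sites, a pattern that the choice of the window used. Of stretches of 102 kb across the genome that held H3K27ac, 15.5% held a UTX peak of HEAA or WT, and here 2 of the 4 areas did. The CEBPA side was among these 2, and its window was chosen for the MLL4 peak at the same site. The CEBPA and CEBPG areas are also shorter than the stretches, at 91.5 kb, so the shares cannot be weighed against each other.

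The UTX and MLL4 site lay inside acetylated chromatin in every line. An H3K27ac region covered all 410 bp of it in both HEAA libraries (fold enrichments 9.82 and 4.68), in both WT libraries (10.7 and 5.40) and in both EV libraries (6.21 and 7.24). Among 1691 UTX sites called in HEAA and WT and not EV, 71.9% met H3K27ac in every list and 55% lay wholly inside it in every list. H3K4me1 covered the whole site in HEAA, 215 of its 410 bp in WT and the whole site in EV. In WT H3K4me1 broke off at 33789538, inside the site, and resumed at 33789899 up to 33792218. The HEAA region spanned 33780488 to 33792342 and an EV region spanned 33788055 to 33792460. This H3K4me1 pattern, whole in HEAA and EV and not in WT, was found at 6.51% of the 1691 sites. No H3K27me3 region touched the site in any line, as at 99.6% of the 1691 sites.

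**Figure D1:**
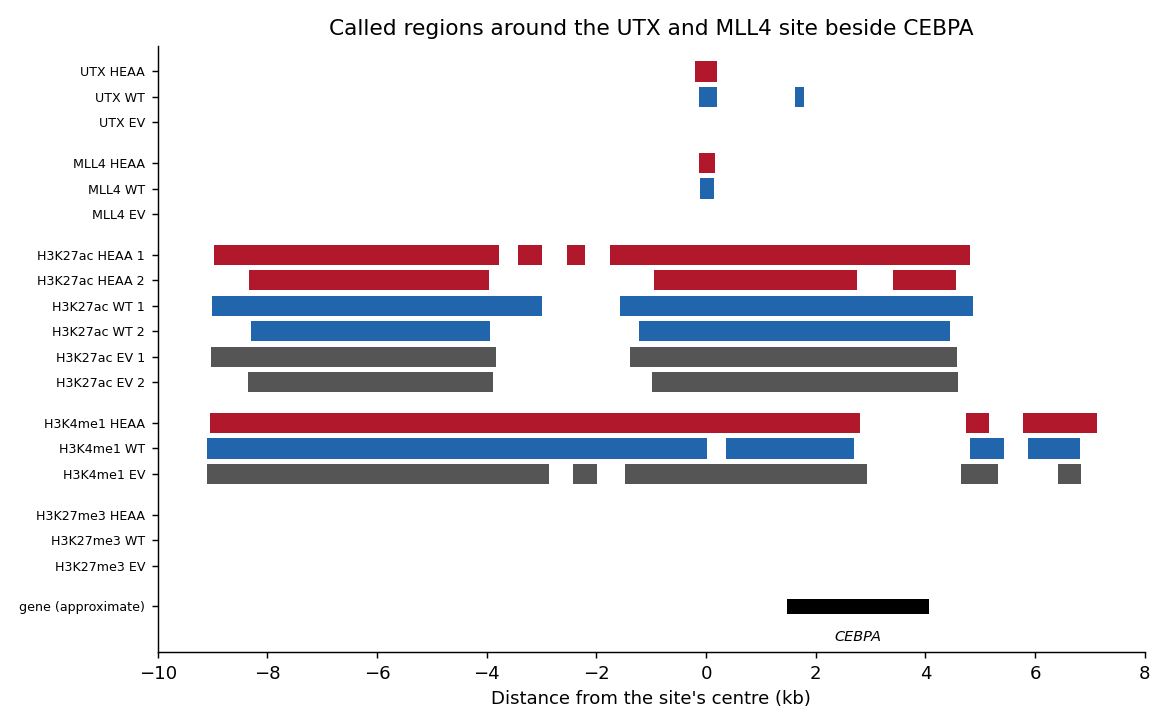
Called regions around the UTX and MLL4 site beside CEBPA, with 1 row for each list and the distance from the site's centre in kb on the horizontal axis. Bars are called regions in HEAA (red), WT (blue) and EV (grey). The UTX and MLL4 peaks of HEAA and WT stack at 0, inside H3K27ac regions of all 6 libraries, and no H3K27me3 region appears.

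The windows of the other genes had acetylated regions as well, and each gene had one that met it. At CEBPG the region took in the gene's start and ended at 33868542, before the gene's last edge near 33874 kb. The 4 areas held 26 merged H3K27ac regions, 5 on the CEBPA side, 3 on the CEBPG side, 17 in the CEBPB window and 1 in the CEBPD window. Of the 26, 10 were called in all 6 libraries, against 31.8% of all merged H3K27ac regions. None was called in all HEAA and WT libraries and no EV library, against 0.54%. A single one, chr19:33862973-33863398 beside CEBPG, was called in both EV libraries (246 and 426 bp) and in no HEAA or WT library, against 0.909%. Its call in the first EV library was weak, at a fold enrichment of 2.45 and rank 58080 of 59180. In the second EV library the fold enrichment was 6.70. In the 10 shared regions, EV covered more bp than HEAA and WT under both library numbers in 3, against 19.1% of such regions, and fewer in 2, against 7.04%.

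Over CEBPA, the acetylated region chr19:33787769-33794394 took in the gene and the UTX and MLL4 site. It covered 6569 and 4870 bp in HEAA, 6431 and 5676 bp in WT, and 5962 and 5575 bp in EV. A neighbouring region, chr19:33780503-33786545, was also called in all 6 libraries, covering 5629 and 4375 bp in HEAA, 6027 and 4351 bp in WT, and 5196 and 4485 bp in EV. The lines overlapped in both regions. A smaller one, chr19:33764690-33765905, covered 1066 and 364 bp in HEAA, 388 and 860 bp in WT, and 198 and 221 bp in EV. It was one of the 2 that were shorter in EV under both library numbers, and there both EV libraries lay below the other 4.

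On the CEBPG side the acetylated region chr19:33863736-33868542 covered 3496 and 2569 bp in HEAA, 2847 and 2693 bp in WT, and 2916 and 4606 bp in EV. Its highest fold enrichment was 9.52 and 12.3 in HEAA, 10.0 and 12.6 in WT, and 7.89 and 14.5 in EV. The second EV library held it as 1 region, whereas the other 5 held 2 pieces. The strongest piece of this region stood within the top 11.0% of each list by fold enrichment.

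In the CEBPB window the largest acetylated region, chr20:48759268-48771231, spanned 11964 bp. It was read as 1 unbroken region of 11939 bp in the first HEAA library and 11774 bp in the first WT library. In the second libraries it was split in 2 pieces in HEAA and in WT, and EV had 4 and 3 pieces. The covered length was 11939 and 10935 bp in HEAA, 11774 and 10969 bp in WT, and 10348 and 10513 bp in EV, with both EV libraries lowest. The WT-only UTX peak of the CEBPB window lay inside this block. Over CEBPB itself, chr20:48806449-48810648 covered 3379 and 3190 bp in HEAA, 3543 and 3361 bp in WT, and 3887 and 4105 bp in EV. Here the order was the other way round, with both EV libraries highest. The region chr20:48787837-48790062 was longest in EV as well, at 1520 and 1335 bp in HEAA, 1250 and 1470 bp in WT, and 1881 and 1827 bp in EV.

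**Figure D2:**
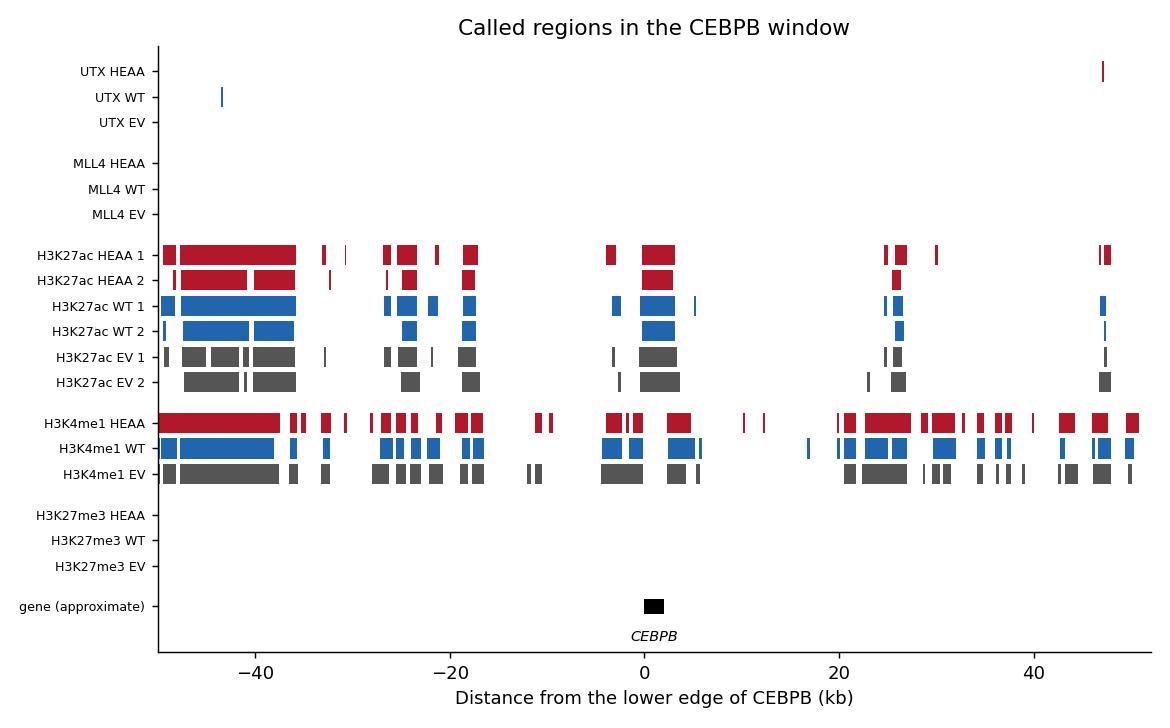
Called regions in the CEBPB window, with 1 row for each list and the distance from the gene's lower edge in kb on the horizontal axis, where regions under 200 bp are drawn 200 bp wide. Bars are regions of HEAA (red), WT (blue) and EV (grey). H3K27ac and H3K4me1 are dense on both sides of the gene, the rows of H3K27me3 are empty, and each of the 2 UTX peaks is in 1 line.

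CEBPD had 1 acetylated region in its window, chr8:48647246-48651917, over the gene. It was high on its own list in every library, within the top 4.83% by fold enrichment, at fold enrichments of 14.9 and 10.9 in HEAA, 14.6 and 13.5 in WT, and 12.3 and 17.7 in EV. It covered 4474 and 2761 bp in HEAA, 4068 and 2895 bp in WT, and 4652 and 4095 bp in EV. EV was the longest line under each library number, but the second EV library was shorter than the first HEAA library.

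**Figure D3:**
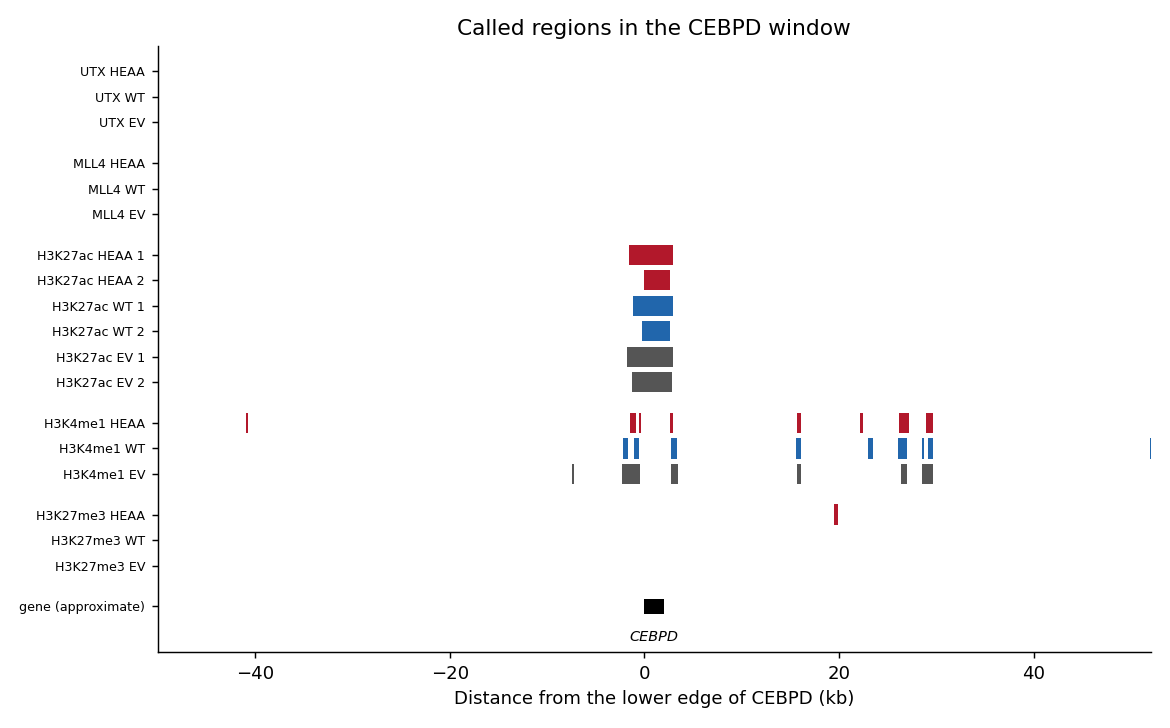
Called regions in the CEBPD window, with 1 row for each list and the distance from the gene's lower edge in kb on the horizontal axis, where regions under 200 bp are drawn 200 bp wide. Bars are regions of HEAA (red), WT (blue) and EV (grey). All 6 H3K27ac libraries have 1 region, over the gene, and the UTX and MLL4 rows are empty.

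Summed over each area, the H3K27ac of the lines overlapped. The CEBPA side was covered over 13.6 and 9.61 kb in HEAA, 13.1 and 10.9 kb in WT, and 11.4 and 10.3 kb in EV. The CEBPG side was covered over 4.23 and 2.57 kb in HEAA, 3.65 and 3.01 kb in WT, and 3.16 and 5.29 kb in EV. The CEBPB window was covered over 26.0 and 18.7 kb in HEAA, 24.9 and 18.8 kb in WT, and 21.6 and 21.7 kb in EV. In these 3 areas the first HEAA and WT libraries lay above the second ones, and the EV pair lay within their range, except the second EV library at CEBPG, which was the highest. The CEBPD window was covered over 4.47 and 2.76 kb in HEAA, 4.07 and 2.90 kb in WT, and 4.65 and 4.10 kb in EV, with overlapping groups. The library numbers also differ in the length that whole lists cover, 110.5 and 48.3 Mb in HEAA, 96.0 and 55.3 Mb in WT, and 88.1 and 71.7 Mb in EV, and the part of that in these values was not tested.

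HEAA and WT together averaged 11.8 ± 1.88 kb on the CEBPA side (SD, n = 4) and EV averaged 10.8 ± 0.760 kb (SD, n = 2), a difference of 0.987 kb (p = 0.667, exact two-sided permutation test). Under the first library number the difference was 2.01 kb and under the second -0.033 kb. For CEBPG the means were 3.37 ± 0.728 kb in HEAA and WT and 4.23 ± 1.51 kb in EV, a difference of -0.862 kb (p = 0.4, exact permutation test). It was 0.779 kb under the first number and -2.50 kb under the second, and 0.204 kb without the second EV library. For CEBPB the means were 22.1 ± 3.91 kb in HEAA and WT and 21.7 ± 0.0856 kb in EV, a difference of 0.420 kb (p = 0.8, exact permutation test), which was 3.84 and -3.00 kb by number. It was -0.887 kb without the first HEAA library and -0.516 kb without the first WT library. For CEBPD the means were 3.55 ± 0.851 kb in HEAA and WT and 4.37 ± 0.394 kb in EV, a difference of -0.824 kb (p = 0.267, exact permutation test), and it had the same sign under both numbers, -0.381 and -1.27 kb. HEAA minus WT was -0.411 kb for CEBPA, 0.068 kb for CEBPG, 0.511 kb for CEBPB and 0.136 kb for CEBPD, each p = 1 by the exact permutation test. Its sign turned between the first and second library numbers in all 4 areas, with 0.456 and -1.28 kb for CEBPA, 0.58 and -0.444 kb for CEBPG, 1.12 and -0.094 kb for CEBPB, and 0.406 and -0.134 kb for CEBPD. All 8 p-values were 1 after Benjamini-Hochberg adjustment. The smallest p that 2 against 2 libraries allow is 0.333, and 2 against 4 libraries cannot reach 0.05 either. Whether the 2 libraries of a line stem from different cultures is not in the labels, so the p-values reflect the spread between libraries alone, and that spread may be technical.

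**Figure D4:**
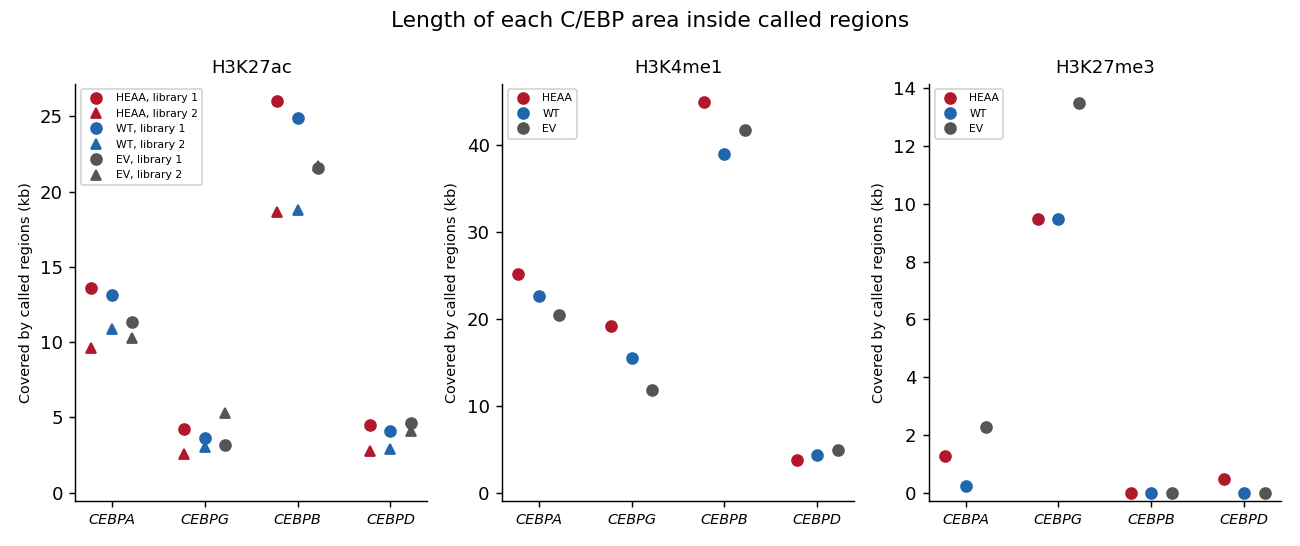
Length of each C/EBP area inside called regions, in kb, for H3K27ac (left), H3K4me1 (middle) and H3K27me3 (right), with HEAA in red, WT in blue and EV in grey. Each point is 1 list, and circles and triangles are the first and second H3K27ac libraries. H3K27ac overlaps between lines in every area, H3K4me1 at CEBPA and CEBPG is highest in HEAA and lowest in EV, and H3K27me3 is largest in EV at both of these genes.

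The density of H3K27ac varied widely among the areas. Averaged over the libraries, 12.5% of the CEBPA side, 3.99% of the CEBPG side, 21.5% of the CEBPB window and 3.75% of the CEBPD window lay in H3K27ac regions. Among 17741 stretches of 102 kb that held H3K27ac anywhere, 2.02% were covered as densely as CEBPB, 7.69% as densely as CEBPA, 34.6% as densely as CEBPG and 36.4% as densely as CEBPD. The stretches held by all 6 libraries together came to 9.26 of 14.5 kb called in any library at CEBPA (63.9%), 2.40 of 6.32 kb at CEBPG (37.9%), 16.1 of 30.8 kb at CEBPB (52.1%) and 2.74 of 4.67 kb at CEBPD (58.6%).

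H3K4me1 covered more of the CEBPA and CEBPG sides in HEAA and WT than in EV. The CEBPA side was covered over 25.2 kb in HEAA, 22.7 kb in WT and 20.5 kb in EV, and the CEBPG side over 19.2 kb in HEAA, 15.5 kb in WT and 11.9 kb in EV. On both sides HEAA had the most and EV the least. With −log10 q of at least 5 HEAA and WT changed places on the CEBPA side, where HEAA minus EV was 3.75 kb and WT minus EV was 4.80 kb, against 4.67 and 2.17 kb as deposited. The ratio to EV over the 2 sides together was 1.37 in HEAA and 1.18 in WT, beside 1.18 and 1.14 for the whole lists. Taken apart, it was 1.23 in HEAA and 1.11 in WT on the CEBPA side, and 1.62 and 1.30 on the CEBPG side. The WT ratio on the CEBPA side was thus below that of its whole list. The CEBPB window had 45.1 kb in HEAA, 39.0 kb in WT and 41.8 kb in EV, and the CEBPD window had 3.82 kb in HEAA, 4.29 kb in WT and 4.91 kb in EV. So 2 of 4 areas had more H3K4me1 in both HEAA and WT than in EV, against 58% of stretches of 102 kb with H3K4me1 in EV. The 2 are adjoining sides of 1 window and not separate cases. With 1 list per line, these values have no test. On the CEBPG side, with −log10 q of at least 5, HEAA minus EV was 2.87 kb and WT minus EV was 0.283 kb, against 7.38 and 3.60 kb as deposited. With lists cut to equal length WT minus EV over all windows was -1.34 kb, against 2.36 kb, and on the CEBPA side it was 0.685 kb, against 2.17 kb.

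Region by region, most H3K4me1 was shared. Of 81 merged regions, 43 were called in all 3 lines, against 47.1% of all merged H3K4me1 regions. Only in HEAA were 19 called, against 13.3%, and only in WT 6, against 11.2%. In HEAA and WT but not EV there were 3, against 13.5%, at chr19:33830029-33830578, chr19:33922385-33924051 and chr20:48826769-48827123. In EV alone there were 5, against 7.54%, at chr19:33752456-33753072, chr19:33863913-33864198, chr20:48794909-48795399, chr20:48845846-48846153 and in the CEBPD window (204 bp). The widest one over CEBPA, chr19:33780425-33792460, reached across the gene's 3' side and the UTX and MLL4 site. It covered 11855 bp in HEAA as a single region, 11433 bp in WT and 11084 bp in EV. The HEAA region stood within the top 0.0531% of its list by width, and the widest WT piece, of 9113 bp, within the top 0.130%. The widest EV piece, of 6232 bp, stood within the top 0.761%. The widest of the CEBPB window, chr20:48756454-48769548, covered 13095 bp in HEAA, 11813 bp in WT and 11872 bp in EV, over most of the long acetylated block. At CEBPG the widest, chr19:33865408-33869407, covered 3725 bp in HEAA, 3777 bp in WT and 3494 bp in EV, and the widest at CEBPD covered 857 bp in HEAA, 985 bp in WT and 1805 bp in EV.

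At each of the 4 genes the longest H3K4me1 gap within the acetylated region merged over the libraries lay over the gene or its start. Any such region that H3K4me1 does not fill has a longest gap. How often it lies over a gene's start elsewhere was not counted, so the gaps are not shown to be particular to these genes. Single H3K27ac libraries could be broken there too, as the second HEAA library was at CEBPA between 33792286 and 33792929. H3K4me1 is known to be low at active promoters, where H3K4me3, which was not measured here, replaces it. Within the acetylated region of CEBPA the longest stretch without H3K4me1 was 1935 bp in HEAA, 2128 bp in WT and 1722 bp in EV, at the gene's 5' side. For CEBPB it was 2496 bp in HEAA, 2502 bp in WT and 2505 bp in EV, and it took in the whole gene, which is 2108 bp long in RefSeq and has no intron. For CEBPD it was 2979 bp in HEAA, 3269 bp in WT and 3186 bp in EV, also with the whole gene, of 1252 bp. The gap at CEBPB began and ended at nearly the same positions in all lines. For CEBPG it was 1882 bp in HEAA, 1895 bp in WT and 1209 bp in EV, over the gene's start. The EV gap began at the end of the EV-only H3K4me1 region chr19:33863913-33864198, which lay in the acetylated region.

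The promoters of 3 of the genes are shown by the 250 bases before each start, since H3K4me1 broke off near these starts. They are from RefSeq on the build GRCh38.p14, written 5' to 3' along the gene's own strand, at chr19:33302535-33302784 (minus strand) for CEBPA, chr19:33373459-33373708 (plus) for CEBPG and chr20:50190333-50190582 (plus) for CEBPB. These positions are of another build than the lists. CEBPG and CEBPB each have 2 listed starts, and the most upstream start was used. The promoter of CEBPD, where H3K4me1 also had a gap, is not shown. Capitals mark matches on either strand to the CCAAT box (CCAAT), the TATA box (TATAAA) and the GC box (GGGCGG).
CEBPA: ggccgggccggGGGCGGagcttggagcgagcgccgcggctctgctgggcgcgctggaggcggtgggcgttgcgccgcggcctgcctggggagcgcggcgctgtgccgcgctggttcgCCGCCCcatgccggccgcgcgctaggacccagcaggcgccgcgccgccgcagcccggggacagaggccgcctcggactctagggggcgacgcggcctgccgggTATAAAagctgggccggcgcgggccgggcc
CEBPG: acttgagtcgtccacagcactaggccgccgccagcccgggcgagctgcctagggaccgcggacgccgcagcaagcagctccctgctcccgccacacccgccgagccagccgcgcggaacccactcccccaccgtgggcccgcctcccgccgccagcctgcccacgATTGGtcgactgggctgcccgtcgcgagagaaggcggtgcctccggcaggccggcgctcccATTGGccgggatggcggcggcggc
CEBPB: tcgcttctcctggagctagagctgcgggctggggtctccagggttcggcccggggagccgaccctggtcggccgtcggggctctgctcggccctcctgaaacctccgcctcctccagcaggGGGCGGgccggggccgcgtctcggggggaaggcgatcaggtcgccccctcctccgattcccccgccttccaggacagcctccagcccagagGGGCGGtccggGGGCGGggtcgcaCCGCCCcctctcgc
The 250 bases hold 41 CG pairs at CEBPA, 32 at CEBPG and 25 at CEBPB, where the median over 35116 promoters was 11 and the 90th percentile was 31. CEBPA has a TATA box at position -30 and GC boxes at -239 and -133. CEBPG has 2 CCAAT boxes, at -85 and -24, both on the opposite strand, and CEBPB has 4 GC boxes. Over the same 250 bases, a TATA box is found in 10.7% of promoters, a GC box in 42.6% and a CCAAT box in 32.0%. A C/EBP-type site, searched as TTNCNNAA on both strands, is in 33.2% and in none of these 3. The letters say nothing on which factors bound there.

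H3K27me3 lay mostly between CEBPA and CEBPG, where its longest regions were, and covered the most in EV. The CEBPA side was covered over 1.28 kb in HEAA, 0.239 kb in WT and 2.28 kb in EV, and the CEBPG side over 9.49 kb in HEAA, 9.49 kb in WT and 13.5 kb in EV. The HEAA and WT sums for CEBPG are equal but come from different stretches. The ratio to EV over both sides was 0.682 in HEAA and 0.617 in WT, beside 1.05 and 0.704 for the whole lists. The WT ratio was thus near that of its own list, and the HEAA ratio was below it. Both areas with H3K27me3 in EV, 2 of 2, had less in HEAA and in WT, against 50.6% of stretches of 102 kb with H3K27me3 in EV. These 2 areas are adjoining sides of 1 window, and the region chr19:33831480-33832872 crosses the cut between them. They are therefore not separate cases. With 1 list per line there is no test. With −log10 q of at least 2, WT minus EV on the CEBPG side was -6.98 kb, against -4.00 kb, and with 25 kb each side HEAA minus EV on the CEBPA side was -0.01 kb, against -1.01 kb.

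Of 13 merged H3K27me3 regions, 4 were called in all lines, against 25.7% of all merged H3K27me3 regions. The longest, chr19:33833451-33840078, covered 4827 bp in HEAA, 4459 bp in WT and 6628 bp in EV, where it was 1 unbroken region. The neighbouring region chr19:33851439-33854286 covered 2054 bp in HEAA, 2601 bp in WT and 2534 bp in EV, and chr19:33854547-33858104 covered 2610 bp in HEAA, 2431 bp in WT and 3251 bp in EV. EV was the longest line in 2 of these 3. The fourth, chr19:33831480-33832872, covered 614 bp in HEAA, 239 bp in WT and 1133 bp in EV. Another 7 were called in EV alone, against 21%, and were 255 to 414 bp wide. These lay at chr19:33744667-33744995, chr19:33750620-33751033, chr19:33752754-33753008, chr19:33803759-33804013, chr19:33830301-33830570, chr19:33846307-33846694 and chr19:33850413-33850731. Their fold enrichments ran from 2.12 to 2.97 and their −log10 q from 1.04 to 3.97, so the weakest were near the highest q of the broad regions, 0.0999. HEAA alone had 2, against 21.8%, of 662 bp on the CEBPA side and 464 bp in the CEBPD window. None was called in HEAA and WT but not EV, against 7.4%.

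H3K27ac and H3K27me3 regions did not meet in these windows, which is the rule in these lists. Of the 115 H3K27ac regions here, 0 met an H3K27me3 region of the same line, against 0.222% of all H3K27ac regions. The CEBPB window had no H3K27me3 region in any line, which held for 30.3% of stretches of 102 kb with H3K27ac. The EV-only H3K27me3 region chr19:33830301-33830570 met H3K4me1 that was called in HEAA and WT and not in EV. It lay within the HEAA region (549 bp) and overlapped the WT region (266 bp) in part. It was 1 of 7 EV-only H3K27me3 regions to meet such an H3K4me1 region, against 1.93% of 68164 across the genome, and it was singled out after its values were seen. A second EV-only region, chr19:33752754-33753008, lay inside an EV-only H3K4me1 region. In all, 4 of the 196 H3K4me1 regions here met an H3K27me3 region of the same line, 1 in HEAA, 1 in WT and 2 in EV, against 5.47% of all H3K4me1 regions.

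**Figure D5:**
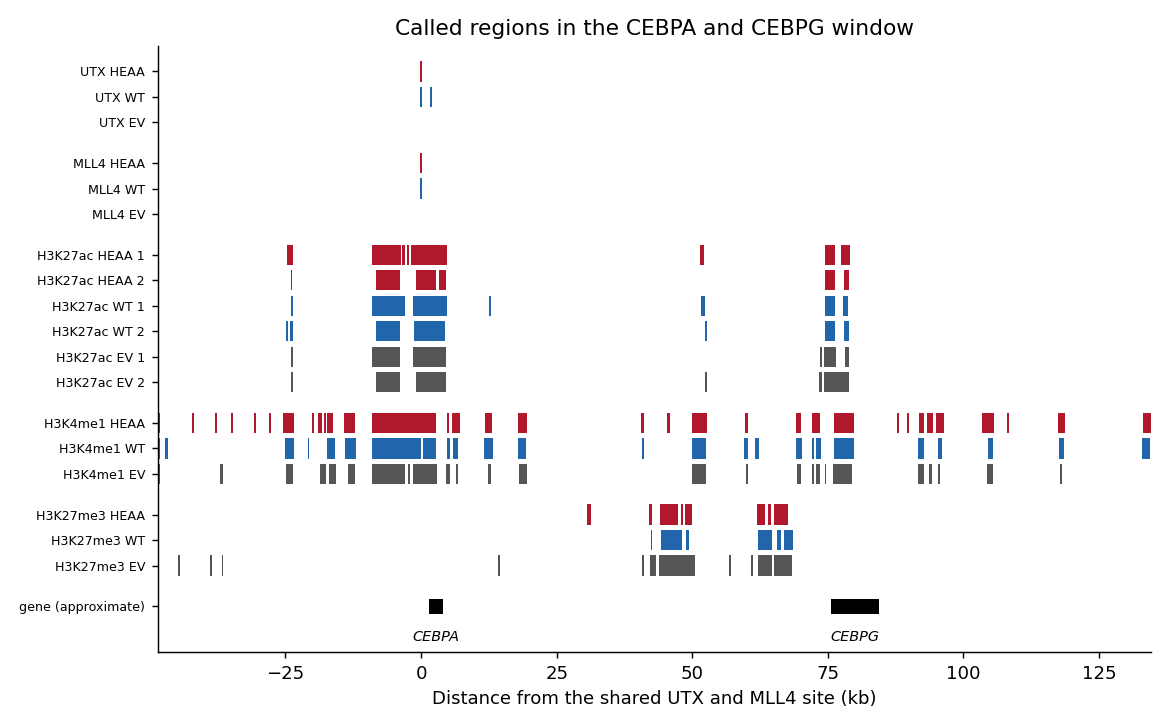
Called regions in the CEBPA and CEBPG window, with 1 row for each list and the distance from the UTX and MLL4 site in kb on the horizontal axis, where regions under 350 bp are drawn 350 bp wide. Bars are regions of HEAA (red), WT (blue) and EV (grey). The widest H3K27ac regions lie at and beside the genes, and the widest H3K27me3 regions lie between them in all lines, with the longest unbroken one in EV (6628 bp).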

How the data were processed

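ChIP-seq peak lists of 18 samples were used, and 6 input samples were not analysed here. Lines and library numbers were taken from the sample titles. Chromatin for UTX and MLL4 was treated with micrococcal nuclease and sonicated, and that for the histone marks was sonicated, per the labels' protocols. MACS2 with the builds hg19 and GRCh37 is named in the submitters' processing notes. Version, aligner and read filters were not given in the sources used here. Deposited lists hold narrow peaks for UTX and MLL4 and broad regions for the marks. The fold enrichment of each peak is a linear ratio given by the authors' peak caller. Each peak also came with deposited −log10 values of p and q, and the highest q was 0.0495 among narrow peaks and 0.0999 among broad regions. The deposited score is derived from q and was not used, and the deposited summit is a position. Peak names in the UTX lists contain "merged", with no statement of what was combined. A longer list may reflect depth, which is unknown.

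Scripts in Python 3.11.15 (NumPy 2.4.6, pandas 2.3.3, SciPy 1.17.1) computed overlaps (at least 1 bp), covered length per area, and merged regions over the lists of an antibody. They were tested on 2000 simulated intervals. Figures used matplotlib 3.10.9. H3K27ac covered kb was compared over libraries by exact two-sided permutation tests with Benjamini-Hochberg adjustment over 8 tests. All other counts are set beside the same count over all merged regions, or over stretches of 102 kb tiling the genome. Gene edges follow the window definition to the nearest kb, with gene lengths from RefSeq, since an annotation of hg19 was not used here, so gene positions are approximate. The named regions were every UTX or MLL4 peak, the widest region of each mark in each area, and regions called in all HEAA and WT libraries and no EV library or the reverse. The other regions called in all H3K27ac libraries or in every H3K27me3 list were named after their values were seen. The planned list of related genes (CEBPE, CEBPZ, DDIT3, ATF4, ATF5, BATF, TRIB1, TRIB2, NFIL3, HLF, TEF, DBP) needed that annotation and was not run. The windows, genes, regions and tests were chosen with earlier results of these data known. Alternatives covered the q threshold, the window size, list length, scaling, the overlap rule, region midpoints, the replicate block and each library left out.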

Additional observations from a re-analysis of the deposited data

How the results depend on the processing

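None of the 88 alternative values of the 8 H3K27ac tests had p under 0.05, and the 8 main tests had none either, which these designs could not reach. Signs turned for CEBPG in HEAA minus WT per Mb of list (-0.000494). For CEBPB, HEAA and WT minus EV was -1.17 kb with windows of 25 kb each side, and HEAA minus WT was -0.267 kb with −log10 q of at least 5 and -0.304 kb with 25 kb. Leaving out 1 library in turn gave -2.40 to 1.58 kb for CEBPA, -0.763 to 0.899 kb for CEBPG, -3.16 to 4.18 kb for CEBPB and -0.721 to 0.993 kb for CEBPD in HEAA minus WT. For HEAA and WT minus EV it gave 0.392 to 1.72 kb for CEBPA, -1.93 to 0.204 kb for CEBPG, -0.887 to 1.56 kb for CEBPB and -1.13 to -0.546 kb for CEBPD. The libraries behind these turns were HEAA 2 and WT 1 at CEBPA, HEAA 1 and WT 2 at the other genes, and for the comparison with EV those named beside its values. The cause was not tested. The replicate block left the differences as they were, such as -0.824 kb for CEBPD in HEAA and WT minus EV, and gave p = 0.111 there by the exact test within numbers, the smallest it allows, and 0.333 for CEBPA, 0.444 for CEBPG and 0.778 for CEBPB. Over 17741 stretches, libraries of 1 number deviated together (correlation 0.894 for HEAA with WT, 0.652 for HEAA with EV, 0.708 for WT with EV), but with 2 numbers this does not show that they were paired.

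UTX sites numbered 2 with −log10 q of at least 5 and 2 with 25 kb, against 4. Over all windows, H3K4me1 in HEAA minus EV was 5.99 kb with 25 kb and 8.20 kb with lists of equal length, against 14.3 kb. In WT minus EV it was 7.64 kb with −log10 q of at least 5, 1.53 kb with 25 kb and -1.34 kb with equal length, against 2.36 kb. At CEBPB, HEAA minus EV was -1.36 kb with 25 kb, and WT minus EV was 2.56 kb with −log10 q of at least 5. At CEBPD, HEAA minus EV was 0.656 kb with that threshold. Unknown depth limits each absence of a call.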

Other observations

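Just outside the windows, the nearest UTX and MLL4 peaks to CEBPD lay 17.0 kb before its window. There MLL4 had a peak in HEAA, with a fold enrichment of 4.71 at chr8:48581758-48581993, and in WT, with a fold enrichment of 4.94 at chr8:48581680-48582072. UTX had one in WT alone, at chr8:48581726-48582031 with a fold enrichment of 4.43, and the nearest UTX peak of HEAA on that side was 332.8 kb before the window. Beyond the CEBPB window a UTX peak of WT lay 4.44 kb past the edge, at chr20:48863439-48863627 with a fold enrichment of 3.29. The last UTX peak inside that window was the HEAA one. Past the CEBPG end of the chromosome 19 window, the nearest UTX peaks lay 74.0 kb away in HEAA and 74.1 kb away in WT, with fold enrichments of 5.25 and 6.75.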
